A study of Mus musculus with 6 samples.

Results

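Clustered histone genes were followed on 6 mouse bone marrow arrays, 3 from mice lacking Spred1 (KO, labelled Spred1 KO) and 3 from wild-type mice (WT, labelled wildtype). All samples carry the strain label C57BL/6. Cells of both genotypes had been gated as CD48-KSL, that is c-Kit+ and Sca-1+ without CD48 or lineage markers, which holds haematopoietic stem and progenitor cells, and no treatment or age is given in the labels. Each sample was hybridised to its own 1-colour array, and the labels do not say whether the 3 samples of a genotype came from separate animals, so each p-value reflects only how far such samples scatter, and some of that scatter may be technical. Members were all probes, controls aside, whose gene name on the array begins with Hist, a cluster number and h. This gave 52 probes under 45 gene names, out of 55681 probes under 34650 names.

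Histones package DNA into nucleosomes, whose core holds H2A, H2B, H3 and H4, while H1 binds the linker DNA between them. Their clustered genes are the replication-dependent ones, expressed mainly during S phase when newly copied DNA must be packaged. Most of their mRNAs end in a stem-loop instead of a poly(A) tail, the stem-loop being bound by the protein encoded by Slbp. Some of these genes, among them Hist1h1c, Hist1h2bc and Hist2h2be, are known to make polyadenylated transcripts as well. Stem cells of the bone marrow are largely quiescent, and the more actively cycling progenitors share part of this gate. In such bulk samples, fewer cells in S phase and less histone mRNA per cell cannot be told apart.

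The members lie in 4 clusters, at positions given by the scanner files on mouse build mm9. Hist1 on chromosome 13 held 39 probes for 34 names, Hist2 on chromosome 3 held 10 for 8, Hist3 on chromosome 11 held 2 for 2 and Hist4 on chromosome 6 held 1. By type, there were 6 probes for H1, 13 for H2A, 11 for H2B, 8 for H3 and 14 for H4.

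Many of these probes cannot separate one histone gene from its near-identical copies, which their sequences show. The following 60-base probes, written 5′ to 3′, lie at the end of the H2A coding sequence, and capitals mark the longest run that all of them share, 29 bases.
Hist1h2ah: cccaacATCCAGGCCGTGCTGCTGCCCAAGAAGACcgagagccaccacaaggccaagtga
Hist1h2ak: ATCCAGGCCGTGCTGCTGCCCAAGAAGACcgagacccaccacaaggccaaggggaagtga
Hist2h2aa2: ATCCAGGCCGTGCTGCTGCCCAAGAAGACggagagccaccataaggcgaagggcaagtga
Hist2h2ac: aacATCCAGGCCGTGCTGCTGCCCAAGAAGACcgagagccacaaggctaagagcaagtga
The Hist1h2ah probe lies at chr13:22127035-22127094 and the Hist2h2ac probe at chr3:96024378-96024437, both on the minus strand of mm9. The Hist1h2ah probe is annotated in the scanner files to 4 RefSeq transcripts, which belong to 4 H2A genes. The signal of such a probe cannot be assigned to 1 H2A gene.

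Probes of H4 genes overlapped in the same way. Capitals here mark the 17 bases shared by 3 of them.
Hist1h4d: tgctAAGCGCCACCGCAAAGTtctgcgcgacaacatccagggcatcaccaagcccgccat
Hist1h4k: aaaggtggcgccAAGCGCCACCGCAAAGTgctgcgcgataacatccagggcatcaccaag
Hist1h4j: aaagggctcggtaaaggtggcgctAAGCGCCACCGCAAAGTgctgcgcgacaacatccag
Over all members, 17 probes carried more than 1 RefSeq accession and 18 shared a run of at least 20 bases with another member probe. Members are therefore not independent measurements.

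Of the 52 probes, 5 held the histone stem-loop motif on either strand, against 10 of all 55681 probes on the array (0.018%). The stretch around it is shown because it marks the 3′ end of the tailless mRNA, with the stem-loop letters in capitals.
Hist2h2bb: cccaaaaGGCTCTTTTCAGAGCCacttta
Hist1h3g: ctttaaaGGCTCTTCTTAGAGCCaccca
Hist1h3i: aacaaaaGGCTCTTTTCAGAGCCccctc
Hist1h3a: aaccaaaGGCTCTTTTCAGAGCCaca
Hist1h4m: aactaaaGGCCCTTTTCAGGGCCatccaa
The first 30 bases of 3 probes without the motif, from the genes with polyadenylated forms, are shown beside them. The share of G and C over the whole probe was 35.0% for Hist1h1c and Hist1h2bc and 45.0% for Hist2h2be.
Hist1h1c: tacacttgctttgccttattttgatcagca
Hist1h2bc: gctgcaaaattaagatgctcctagcaaaag
Hist2h2be: aagtctgttcctgaactggcattagagccc
The labels name a labelling kit for low RNA input and do not state where its primer binds.

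Signals are processed intensities on a log2 scale, set relative to each array's 75th percentile, which lies at 0. Of the 52 probes, 47 were measured, which required a call of well above background from the scanner software on every array of KO, of WT or of both, and all 47 had that call on all 6 arrays. The 5 others were Hist1h1d, Hist1h1t, Hist1h2bp, the pseudogene Hist3h2bb-ps and the second probe of Hist2h2bb. Hist1h2bp and Hist3h2bb-ps were well above background on 0 of 6 arrays, Hist1h1d on 0 KO arrays and 1 WT array, and Hist1h1t, a testis H1 gene, on 2 arrays of each genotype. No spot was saturated on any array. Across the array, 27806 probes were measured.

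The targeted gene was read by 3 probes with unlike results. One Spred1 probe measured 0.37, 0.16 and 0.00 on the KO arrays, against -2.06, -2.52 and -2.23 on the WT arrays (2.44 ± 0.15 SE, limma adjusted p = 0.012). Another measured 0.32, 0.42 and 0.19 on the KO arrays, against 1.35, 1.26 and 1.27 on the WT arrays (-0.98 ± 0.10 SE, limma adjusted p = 0.059), and the third differed by -0.14 ± 0.10 SE. The first and second probes separated the genotypes without overlap, and only the first passed the adjusted threshold. On the third the genotypes overlapped. The labels do not say which part of the gene was deleted, so these probes do not by themselves check the loss of Spred1.

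No clustered histone probe passed the test between KO and WT. Out of 47 measured probes, 0 were called higher and 0 lower in KO by limma at an adjusted p under 0.05 (smallest adjusted p = 0.481), where 0.0324% of all 27806 probes were called, 0.0216% higher and 0.0108% lower. At an unadjusted p under 0.05, 0 of the 47 counted, against 11.4% of all probes. For 0 of the 47 did the arrays of the genotypes separate without overlap, against 18.6% of all probes, 9.47% with every KO array above and 9.1% with every KO array below. The differences between KO and WT ranged from -0.37 to 0.34 on the log2 scale. The 95% interval of the difference lay within 2-fold in either direction for 45 of the 47 probes, the exceptions being Hist1h2bq and Hist1h4m.

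The signs were uneven: 35 of the 47 probes had higher means in KO and 12 had lower ones, with a median difference of 0.14. Over all 27806 probes, 49.9% had higher means in KO. Without scaling between arrays the median was 0.00 over the members and -0.15 over all probes, and the medians of H1, H2A, H2B, H3 and H4 were 0.10, 0.08, -0.20, -0.04 and 0.00. The medians of H3, of H4 and of all members were then no longer above 0, though they stood above that of all probes. Many of the 47 probes share sequence, so this count does not weigh 47 separate genes. For 30 of the 47 the SE of the difference was as large as the difference itself or larger.

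**Figure D1:**
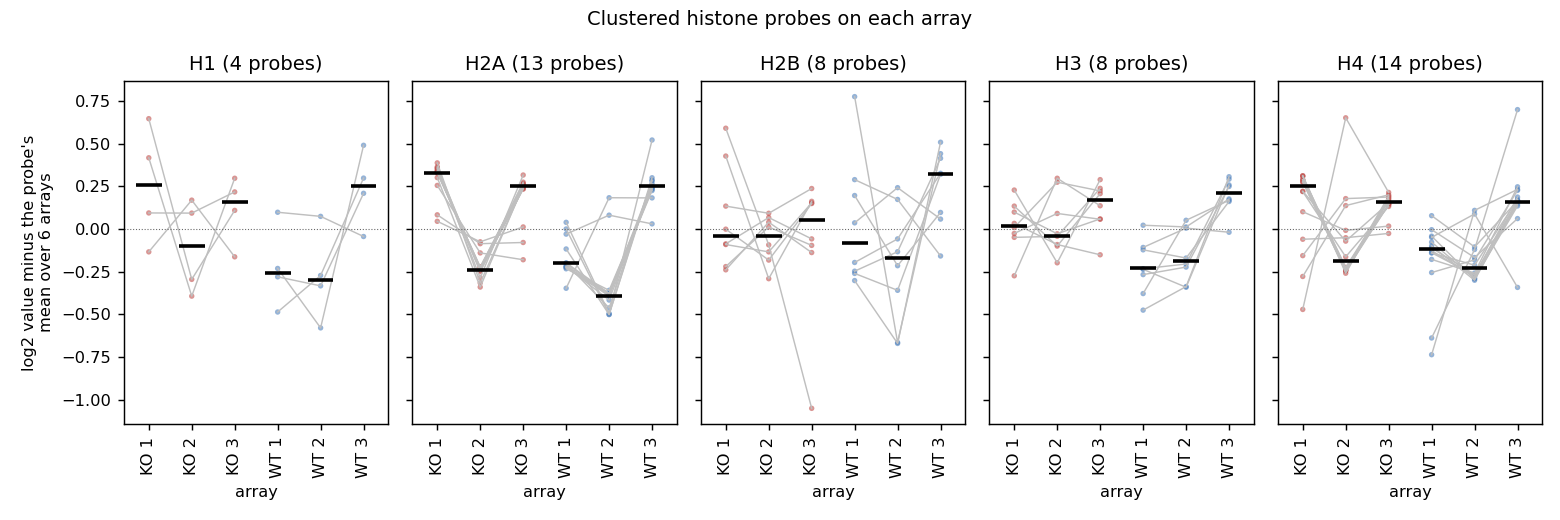
Value of each measured clustered histone probe on each array, as log2 value minus the mean of that probe over the 6 arrays, by histone type. Points are probes (KO red, WT blue), grey lines join a probe's arrays within a genotype, and black bars are medians. In H2A the points of KO 2, WT 1 and WT 2 lie mostly below 0 and those of KO 1, KO 3 and WT 3 mostly above it.

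H2A, which binds H2B in the outer part of the nucleosome core, was measured by 13 probes with a median difference of 0.23. Hist2h2ac measured 8.39, 7.82 and 8.31 on the KO arrays, against 7.83, 7.67 and 8.27 on the WT arrays. Hist1h2ag measured 8.64, 8.08 and 8.57 on the KO arrays, against 8.08, 7.91 and 8.54 on the WT arrays. KO replicate 2 lay near WT replicates 1 and 2 for both probes, WT replicate 3 lay near KO replicates 1 and 3, and the genotypes overlapped. The difference was 0.25 ± 0.21 SE for each (limma adjusted p = 0.641 for Hist2h2ac and 0.642 for Hist1h2ag). Hist1h2an, Hist1h2af, Hist1h2ao, Hist1h2ah, Hist2h2aa2 and the coding-end probe of Hist1h2ak were likewise higher on KO replicates 1 and 3 and WT replicate 3 than on each of the other arrays. These 8 H2A probes share a run of at least 20 bases with another member probe, and they differed between genotypes by 0.22 to 0.26, with SE of 0.21 to 0.24. KO replicate 1 exceeded KO replicate 2 by 0.55 to 0.64 in this set, and WT replicate 3 exceeded WT replicate 2 by 0.59 to 0.75. The gaps between arrays of the same genotype were thus larger than the difference between genotypes.

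The other H2A probes were less alike. Hist1h2ab (0.21 ± 0.25 SE) and the second probe of Hist1h2ak (0.14 ± 0.25 SE) were likewise lowest on WT replicate 2, with KO replicate 2 the lowest KO array. Hist3h2a measured 3.40, 3.24 and 3.24 on the KO arrays, against 3.29, 3.40 and 3.35 on the WT arrays, and differed by -0.05 ± 0.09 SE. Hist1h2aa, a testis H2A gene, and Hist2h2ab differed by -0.01 ± 0.16 SE and -0.04 ± 0.26 SE.

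H1, the linker histone, was represented by 4 measured probes with a median difference of 0.24. Hist1h1e measured 6.00, 5.06 and 5.46 on the KO arrays, against 4.87, 5.08 and 5.65 on the WT arrays. It was high on KO replicate 1 and on WT replicate 3, and the difference was 0.31 ± 0.29 SE (limma adjusted p = 0.674). Hist1h1a measured 2.17, 2.17 and 2.30 on the KO arrays, against 1.80, 1.75 and 2.29 on the WT arrays, a difference of 0.27 ± 0.16 SE (limma adjusted p = 0.526). WT replicate 3 alone overlapped the KO arrays there. Hist1h1b differed by 0.21 ± 0.32 SE, with an SD of 0.44 in KO and 0.55 in WT (n = 3 each). Hist1h1c, which also makes polyadenylated mRNA, measured 4.08, 4.38 and 4.05 on the KO arrays, against 4.31, 4.29 and 4.17 on the WT arrays (-0.09 ± 0.12 SE), and for it KO replicate 2 was the highest KO array.

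H2B, the partner of H2A, had the only type median below 0, at -0.05 over 8 measured probes, 6 of them with lower means in KO. Hist1h2bc had the smallest p of all 47 members. It measured 3.32, 3.60 and 3.42 on the KO arrays, against 3.59, 3.80 and 3.62 on the WT arrays, and KO replicate 2 overlapped WT replicate 1. The difference was -0.22 ± 0.11 SE (limma adjusted p = 0.481; exact two-sided permutation p = 0.2, where 3 against 3 arrays cannot go below 0.1). Hist2h2be measured -0.83, -0.60 and -0.71 on the KO arrays, against -0.32, -0.44 and -0.77 on the WT arrays (-0.20 ± 0.14 SE, limma adjusted p = 0.573). WT replicate 3 was the array of WT that overlapped KO.

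Other H2B probes varied more between arrays. Hist1h2bb measured -1.57, -1.61 and -1.47 on the KO arrays, against -2.01, -2.37 and -1.20 on the WT arrays, and differed by 0.31 ± 0.28 SE. Its WT arrays spread on both sides of the KO arrays. Hist2h2bb, whose probe holds the stem-loop, differed by 0.20 ± 0.24 SE and was likewise low on KO replicate 2 and WT replicates 1 and 2. Hist1h2bq differed by -0.37 ± 0.50 SE and rested on KO replicate 3 (-3.68). Hist1h2be, Hist1h2bm and the testis gene Hist1h2ba differed by -0.05 ± 0.13 SE, -0.02 ± 0.19 SE and -0.05 ± 0.16 SE.

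H3, which with H4 forms the central tetramer of the nucleosome, had a median difference of 0.10 over 8 probes. Hist1h3g, one of the stem-loop probes, measured -1.64, -1.38 and -1.43 on the KO arrays, against -2.13, -1.99 and -1.35 on the WT arrays. Its difference of 0.34 ± 0.21 SE was the highest of the members (limma adjusted p = 0.545), and WT replicate 3 was above every KO array. Hist2h3b measured 3.96, 3.54 and 4.02 on the KO arrays, against 3.50, 3.39 and 3.99 on the WT arrays, so that KO replicate 2 and WT replicates 1 and 2 were again the low arrays (0.21 ± 0.20 SE). Hist1h3d was steady, at 7.16, 7.27 and 7.24 on the KO arrays, against 7.07, 7.19 and 7.16 on the WT arrays, and its 95% interval ran from -0.12 to 0.29. Hist2h3c2 was the H3 probe with a lower mean in KO (-0.14 ± 0.10 SE, limma adjusted p = 0.578). Hist1h3f, Hist1h3c, Hist1h3i and Hist1h3a differed by 0.16, 0.09, 0.10 and 0.11, with limma adjusted p of 0.703 to 0.835.

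H4 had a median difference of 0.14, with higher means in KO for 13 of 14 probes. Hist1h4d measured 8.51, 7.94 and 8.38 on the KO arrays, against 8.12, 7.91 and 8.34 on the WT arrays at its probe at chr13:23673749-23673808 (0.15 ± 0.18 SE). Hist4h4, the only member in its cluster, measured 5.69, 5.13 and 5.57 on the KO arrays, against 5.25, 5.10 and 5.52 on the WT arrays (0.17 ± 0.18 SE). In both, KO replicate 2 lay beside WT replicate 2 and the genotypes overlapped. Hist1h4k gave 0.14 ± 0.17 SE and 0.15 ± 0.18 SE at its 2 probes, and Hist2h4 gave 0.16 ± 0.18 SE and 0.04 ± 0.33 SE. The 3 probes of Hist1h4i gave 0.14, 0.07 and -0.09. Hist1h4h differed by 0.20 ± 0.14 SE (limma adjusted p = 0.583), Hist1h4c by 0.13 and Hist1h4j by 0.12. Hist1h4m, a stem-loop probe, went another way between arrays, at 0.57, 1.69 and 1.25 on the KO arrays, against 0.30, 1.15 and 1.27 on the WT arrays. Replicate 1 was the lowest array of each genotype for it, as it was for the stem-loop probe of Hist1h3a (0.74, 1.31 and 1.15 in KO, against 0.63, 1.06 and 1.18 in WT).

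**Figure D2:**
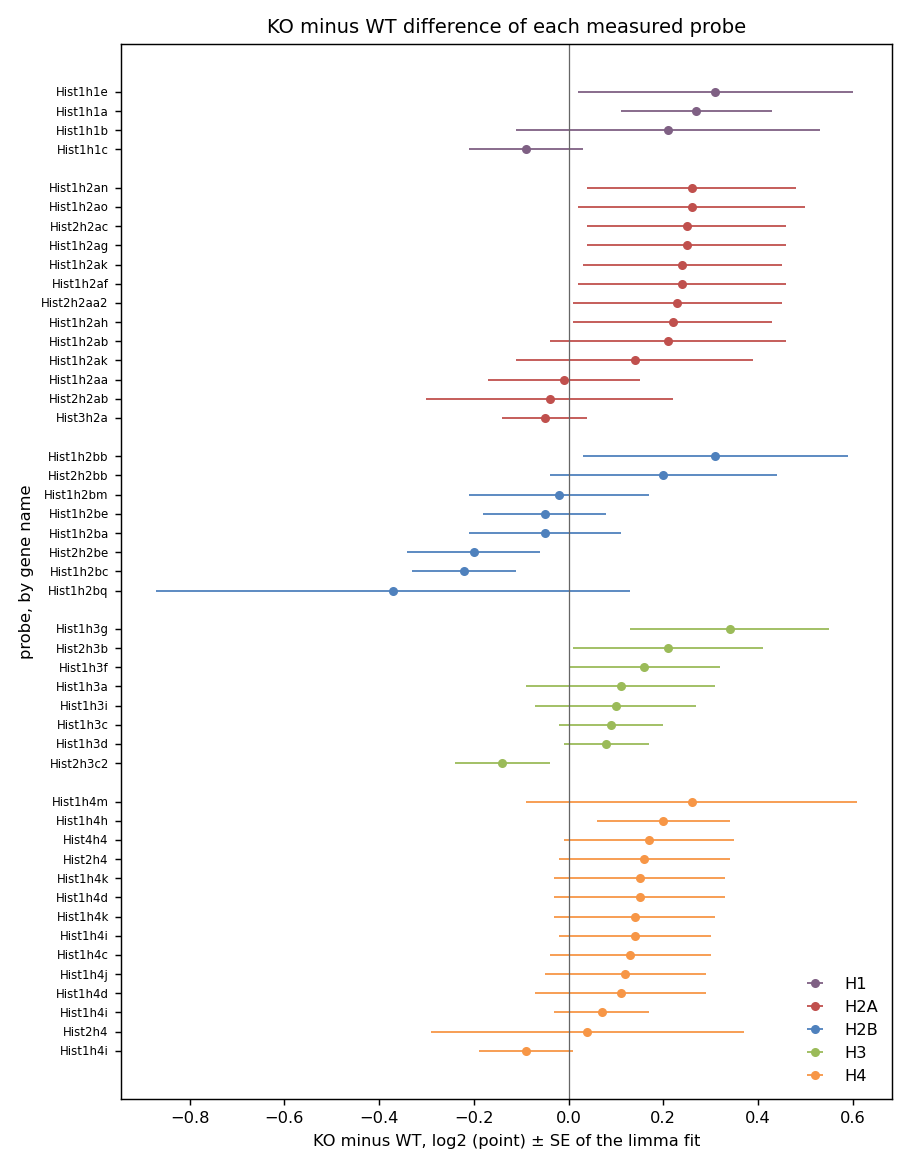
Difference between KO and WT on the log2 scale for each of the 47 measured probes (points, with SE of the limma fit as bars), by histone type from top to bottom. Most H1, H2A, H3 and H4 probes lie right of 0 and most H2B probes left of it, between -0.37 and 0.34, and no probe passed the adjusted threshold.

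The spread between arrays of the same genotype was wider in these probes than on the array at large. The median SD within a genotype was 0.26 over the 47 probes and 0.16 over all 27806, and 39 of the 47 lay above that median of all probes. Relative to each probe's mean over the 6 arrays, the median member stood at 0.22, -0.14 and 0.16 on the KO arrays, against -0.20, -0.27 and 0.23 on the WT arrays. KO replicate 2 was the lowest KO array for 32 of the 47 probes, against 39.5% of all probes. WT replicate 3 was the highest WT array for 38 of the 47, against 39.9% of all probes.

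The arrays lay on 2 slides, and the difference between KO and WT was not alike on them. On slide 1, with replicates 1 and 2 of each genotype, the median difference was 0.23 over all members, 0.41 for H1, 0.35 for H2A, 0.06 for H2B, 0.18 for H3 and 0.22 for H4. On slide 2, with replicate 3 of each, it was -0.04 over all members, -0.15 for H1, -0.01 for H2A, -0.18 for H2B, -0.05 for H3 and -0.02 for H4. KO replicate 3 lay below WT replicate 3 for 34 of the 47 probes, against 52.6% of all probes. The difference between slides was not tested, and slide 2 holds 1 array per genotype. Without WT replicate 3 the median over the members was 0.28, without KO replicate 2 it was 0.27, without KO replicate 1 it was 0.06 and without WT replicate 2 it was 0.05, and no member passed the adjusted threshold in any of these fits.

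Part of the pattern went with the base composition of the probes. The share of G and C was 35.0% to 70.0% over the 52 probes. The 30 measured probes with at least 50% G and C, a division made after the values were seen, had a median difference of 0.15, and the 17 others of -0.04. Within slide 1 the median differences were closer, at 0.23 in the first set and 0.19 in the second. WT replicate 3 exceeded WT replicate 1 by a median of 0.44 and 0.42 in these sets, and WT replicate 2 by 0.50 and 0.31. On slide 1, the KO mean was above the WT mean for 30 of 30 probes in the first set and for 10 of 17 in the second, against 51.7% of all probes. On slide 2, KO replicate 3 lay below WT replicate 3 for 18 of 30 and 16 of 17 probes, against 52.6% of all probes. KO replicate 1 exceeded KO replicate 2 by a median of 0.52 in the first set and 0.04 in the second. Among the 5517 other probes on the array with at least 50% G and C the median gap between KO replicates 1 and 2 was 0.04. On slide 1 the KO mean was the higher for 53.6% of them. Among the 546 of these with a mean log2 value of 4 or more the gap was 0.10, and the KO mean on slide 1 was the higher for 63.0%. In that last group KO replicate 2 was the lowest KO array for 70.5% of probes and WT replicate 3 the highest WT array for 78.8%, so the order was also that of many bright probes that are not histone probes, with smaller gaps. Most H2A and H4 probes fell in the set with more G and C, and most H2B probes in the other. The H2A and H4 probes that share a run of at least 20 bases were all in the first set. Base composition thus cannot be told apart from histone type or shared sequence over these sets. Hist1h2ab, with a longest shared run of 15 bases, had the order of arrays of the 8 H2A probes. The part of base composition and brightness in the histone values was not tested.

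**Figure D3:**
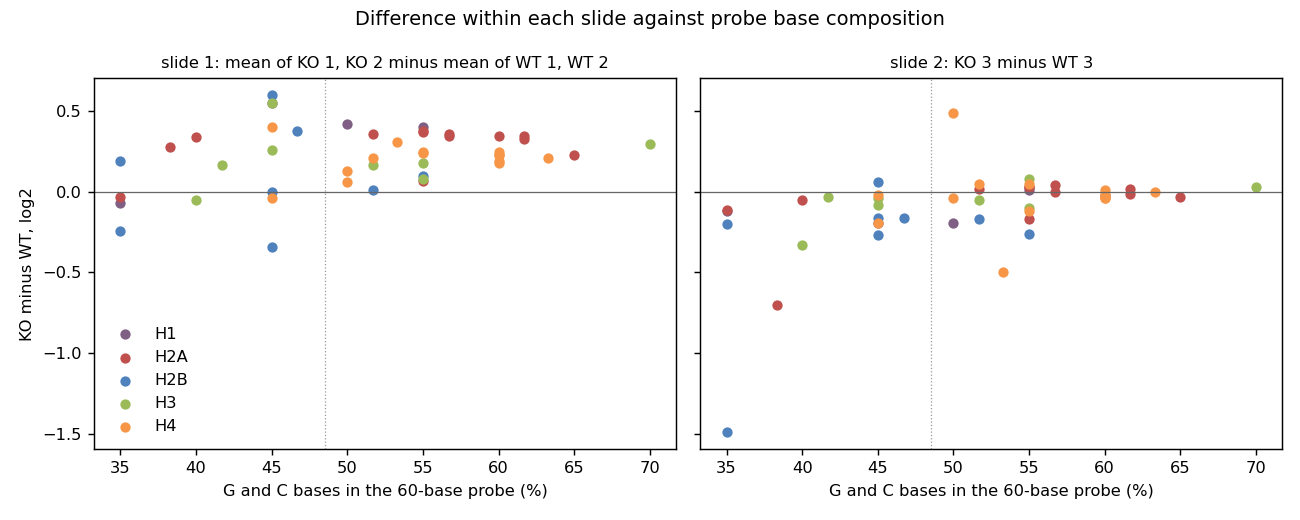
Difference between KO and WT within slide 1 (left, means of 2 arrays per genotype) and slide 2 (right, 1 array per genotype) for each measured probe, on the log2 scale, against the percentage of G and C bases in its 60-base sequence. The dotted line separates probes under 50% from the others; right of it all 30 probes lie above 0 on slide 1, and 18 of the 30 lie below 0 on slide 2.

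Histones that are made outside S phase give a comparison within the same protein families. Of 12 measured genes of this kind, 0 passed in either direction by limma and 0 were at an unadjusted p under 0.05, with a median difference of 0.03, which was -0.12 without scaling between arrays, where all probes stood at -0.15. H3f3b, which encodes the replacement histone H3.3, measured 7.43, 7.65 and 7.50 on the KO arrays, against 7.56, 7.62 and 7.47 on the WT arrays, and H3f3a differed by -0.08 ± 0.10 SE. H2afz, which encodes H2A.Z, differed by -0.15 ± 0.11 SE, H2afx, whose product marks DNA breaks when phosphorylated, by 0.01 ± 0.15 SE, and H1f0, a linker histone of resting cells, by 0.01 ± 0.16 SE. Cenpa, the centromeric H3, differed by 0.17 ± 0.12 SE and H1foo by 0.20 ± 0.14 SE. KO replicate 1 did not exceed KO replicate 2 by as much as 0.55, the lowest gap among the 8 H2A probes, for any gene of the list. No clustered H3 probe reached 0.55 either, the highest gap being 0.42. The median gap was 0.06 over this list and 0.38 over all members. By type it was 0.41, 0.58, 0.04, 0.06 and 0.45 for clustered H1, H2A, H2B, H3 and H4.

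H2afj, an H2A gene that is not a member by name, came nearest of this list to the gap of 0.55. It measured 8.42, 7.88 and 8.32 on the KO arrays, against 7.91, 7.75 and 8.34 on the WT arrays, low on the same arrays as the clustered H2A probes (0.21 ± 0.20 SE, limma adjusted p = 0.686). Its probe lies at chr6:136757181-136757240, near the Hist4h4 probe at chr6:136752681-136752740. The H2afj probe shares 38 bases in a row with the Hist2h2aa2 probe, in capitals here. No other measured gene of this list shares more than 10 bases in a row with a member.
H2afj: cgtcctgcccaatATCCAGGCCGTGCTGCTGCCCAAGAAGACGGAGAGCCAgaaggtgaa
What portion of its signal comes from H2afj mRNA was not tested.

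Genes that serve the clustered histones mostly had lower means in KO. Of 24 measured genes for histone mRNA transcription and processing, 0 passed by limma and 1 was at an unadjusted p under 0.05, against 11.4% of all probes. Lower means in KO were found for 21 of the 24, and the median difference was -0.13. Over all probes, 49.9% had higher means in KO. Slbp, which encodes the stem-loop binding protein, measured 0.21, 0.67 and 0.16 on the KO arrays, against 1.06, 0.44 and 0.70 on the WT arrays (-0.38 ± 0.20 SE, limma adjusted p = 0.498). It was lowest on KO replicates 1 and 3, where the H2A probes were high. The WT arrays did not share that order: Slbp measured 0.70 on WT replicate 3, where the H2A probes were also high. Its lowest WT value was on WT replicate 2, where the H2A median was lowest. Npat, the coactivator of histone loci, was well above background on 0 of 6 arrays. Of this list, Sf3a1 had the smallest p (-0.26 ± 0.09 SE, limma adjusted p = 0.397), followed by Upf1 (-0.24 ± 0.11 SE), whose product takes part in histone mRNA decay, and Hinfp (-0.22 ± 0.10 SE), an activator of H4 genes.

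Of 25 histone chaperone genes, all measured, 0 passed by limma and 1 was at an unadjusted p under 0.05, against 11.4% of all probes. Lower means in KO were found for 23 of the 25, with a median difference of -0.09. Nasp, a chaperone for H3 and H4 and for H1, measured 2.69, 2.63 and 2.47 on the KO arrays, against 3.06, 2.69 and 3.15 on the WT arrays (-0.37 ± 0.14 SE, limma adjusted p = 0.421). Hira, a chaperone for H3.3, differed by -0.26 ± 0.12 SE and Hat1, which acetylates new H4, by -0.30 ± 0.15 SE.

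Of 29 measured S phase genes, Slbp again among them, 0 passed by limma and 1 was at an unadjusted p under 0.05, against 11.4% of all probes. Lower means in KO were found for 25 of the 29, and the median difference was -0.15. That median was -0.01 on slide 1 and -0.40 on slide 2, -0.07 without WT replicate 3 and -0.29 without WT replicate 2. Their median member stood at -0.03, -0.09 and -0.09 on the KO arrays, against 0.17, -0.21 and 0.25 on the WT arrays. WT replicate 1 was thus high in S phase genes and low in clustered histones, while WT replicate 2 was low and WT replicate 3 high in both. Tyms, for thymidylate synthesis, differed by -0.41 ± 0.16 SE (limma adjusted p = 0.425), Cdk2 by -0.34 ± 0.17 SE, and Pcna, the replication clamp, by -0.05 ± 0.13 SE. Of 18 measured mitosis genes, 0 passed by limma, 0 were at an unadjusted p under 0.05 and the median difference was 0.01, with a range of -0.21 (without WT replicate 2) to 0.15 (without WT replicate 3) when 1 array was left out. Mki67, the proliferation marker, measured 3.79, 3.51 and 3.79 on the KO arrays, against 3.97, 3.25 and 3.97 on the WT arrays. Of the mitosis genes, Bub1b had the smallest p (-0.39 ± 0.18 SE, limma adjusted p = 0.455), followed by Cdk1 (-0.21 ± 0.19 SE) and Aurka (0.18 ± 0.16 SE).

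**Figure D4:**
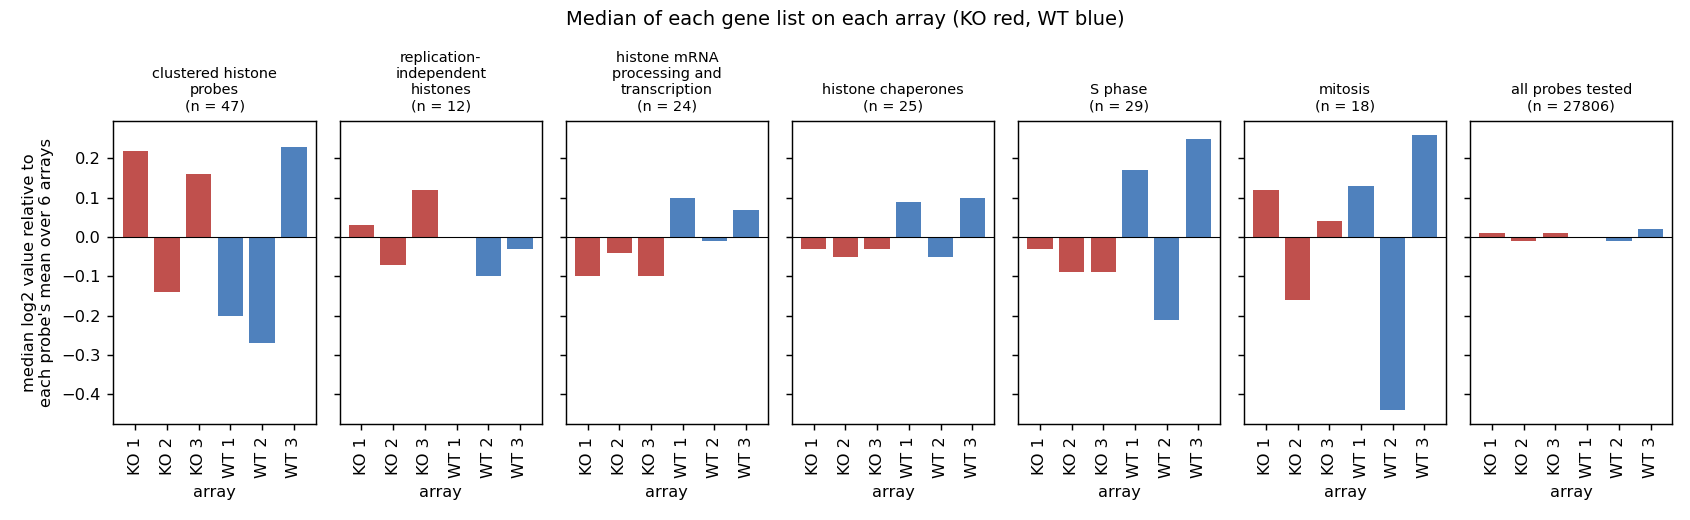
Median log2 value of each gene list on each array, relative to each probe's mean over the 6 arrays (bars, KO red and WT blue). Clustered histone probes stand at 0.22, -0.14 and 0.16 on the KO arrays, against -0.20, -0.27 and 0.23 on the WT arrays. S phase genes stand below 0 on every KO array and above it on WT replicates 1 and 3. They are lowest on WT replicate 2 (-0.21).

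Markers of other cell types were examined beside these values. Neutrophil markers (12 of 12 measured) had medians of 0.30, -0.05 and 0.29 on the KO arrays, against -1.81, 0.68 and 0.61 on the WT arrays, and monocyte and macrophage markers (9 of 11 measured) of 0.10, 0.41 and -0.09 on the KO arrays, against -0.84, 0.22 and 0.17 on the WT arrays. Erythroid markers (9 of 11 measured) had medians of -0.03, -0.08 and -0.02 on the KO arrays, against -0.60, 0.15 and 0.19 on the WT arrays. WT replicate 1 was the lowest array in these lists, and for the clustered histones it stood beside WT replicate 2. Without WT replicate 1 the median difference over the members was 0.12. B cell markers (5 of 10 measured) had medians of 0.01, 0.12 and 0.30 on the KO arrays, against -0.50, 0.10 and 0.22 on the WT arrays. T and NK cell (5 of 10 measured), megakaryocyte (8 of 8) and dendritic cell markers (7 of 9) had median differences of 0.17, 0.12 and 0.15. In these 3 lists 0 genes passed by limma. At an unadjusted p under 0.05 there were 0 T and NK cell genes, 1 megakaryocyte gene in each direction and 2 dendritic cell genes higher in KO. The dendritic cell genes were Siglech and Flt3, and the same Flt3 probe is also among the stem and progenitor genes below. In the neutrophil, monocyte and macrophage, erythroid and B cell lists 0 genes passed as well. At an unadjusted p under 0.05, 1 monocyte and macrophage gene (Emr1) and 1 B cell gene (Cd22) were higher in KO. The neutrophil and erythroid lists had 0 such genes. Of 6 stem and progenitor genes, all well above background on all 6 arrays, 0 passed by limma. Kit and Ly6a, which encode c-Kit and Sca-1, differed by -0.09 ± 0.13 SE and 0.08 ± 0.17 SE. Flt3, a receptor of multipotent progenitors, measured 5.02, 4.81 and 5.11 on the KO arrays, against 4.66, 4.35 and 4.67 on the WT arrays (0.42 ± 0.13 SE, limma adjusted p = 0.392). Slamf1, which encodes the stem cell marker CD150, measured -1.81, -0.88 and -1.42 on the KO arrays, against -0.72, -0.89 and -0.81 on the WT arrays (-0.56 ± 0.22 SE, limma adjusted p = 0.426). The Flt3 values did not overlap between genotypes, as was so for 18.6% of all probes. Both genes were at an unadjusted p under 0.05, as were 11.4% of all probes. The part of other cells, or of the mix of stem and progenitor cells, in the histone values was not tested.

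Short elements recur in the promoters of the clustered histone genes, and 3 promoters are shown, 1 each of H2B, H4 and H1. Their measured probes were higher on KO replicate 1 than on KO replicate 2. That order held for 35 of the 47 members and 53.2% of all probes, so it does not set these 3 genes apart. RefSeq holds a start-site window of 300 bases for 39 of the 45 gene names (build GRCm38.p6). On either strand, CCAAT was in 33 of the 39 windows, against 37.4% of all 32851. It was in every H1, H2A, H2B and H3 window but in 2 of 8 H4 windows (25.0%), of which Hist1h4c is 1. TATAAA was in 21 of the 39, against 13.6% of all. The octamer ATTTGCAT, known as an element of H2B promoters, was in 4 of 7 H2B and 5 of 12 H2A windows and in 0 of the others, against 1.74% of all. H2A and H2B genes often start back to back, so their windows can overlap. AAACACA, known from H1 promoters, was in 5 of 6 H1 windows, against 7.18% of all. The stretches below hold 150 bases up to the start site, with matches to these motifs in capitals.
Hist2h2bb, chr3:96269550-96269699, plus strand: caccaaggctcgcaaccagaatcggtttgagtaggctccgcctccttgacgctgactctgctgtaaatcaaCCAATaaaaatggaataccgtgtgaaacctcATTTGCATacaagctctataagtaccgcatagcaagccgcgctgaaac
Hist1h4c, chr13:23698459-23698608, minus strand: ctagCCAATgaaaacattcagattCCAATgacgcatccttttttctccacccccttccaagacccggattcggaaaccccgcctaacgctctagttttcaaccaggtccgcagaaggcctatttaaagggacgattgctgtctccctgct
Hist1h1e, chr13:23622559-23622708, minus strand: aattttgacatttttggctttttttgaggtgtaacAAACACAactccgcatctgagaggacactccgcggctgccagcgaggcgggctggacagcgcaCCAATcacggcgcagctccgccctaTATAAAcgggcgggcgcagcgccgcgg
The stretch of Hist2h2bb carries the octamer and a CCAAT match. That of Hist1h4c carries CCAAT alone of these motifs. That of Hist1h1e carries the H1 motif, the CCAAT motif and the TATAAA motif. These matches describe letters and say nothing of the factors bound in these cells.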

How the data were processed

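Total RNA of 6 sorted mouse bone marrow samples, 3 KO and 3 WT by the genotype label, was hybridised to 1-colour Agilent arrays. The deposited scanner files hold an intensity per spot, which the file headers say was background-subtracted and detrended in Feature Extraction (Agilent, version 10.7.3.1), with probe positions on mm9. The authors' deposited value table held that processed signal divided by 1 constant per array (304.4 to 368.2), a ratio on a linear scale, and served as an alternative.

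Control spots and outlier flags (92 to 155 of 59305 spots per array) were left out and spots averaged per probe. The log2 value minus the 75th percentile of the array was fitted with limma 3.58.1 in R 4.3.3 (lmFit, eBayes) over the 27806 probes that the scanner software flagged as clearly over background on every array of KO, of WT or of both. P-values were adjusted by Benjamini-Hochberg over these, with a threshold of 0.05, and the fit was tested on simulated data. Between 52.3% and 53.4% of spots were well above background, and 3 arrays per genotype limit the precision. Single values were also given an exact permutation test. Slides were told apart by the array barcodes.

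Named were, for each histone type, the 5 measured probes of smallest p and the 2 of highest signal, and from each companion gene list the 3 genes of smallest p plus genes fixed by name; further members are given by value. The members, gene lists and tests were chosen with earlier results of these data known. Alternatives were other scalings, background corrections, filters, 1 probe per gene name, the deposited table, slides apart, a replicate block and leaving out each array.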

Additional observations from a re-analysis of the deposited data

How the results depend on the processing

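No clustered histone probe passed limma's adjusted threshold under the 18 alternatives that allow a test. Slide 2 alone, with 1 array per genotype, gave differences without a test. At an unadjusted p under 0.05, where the main setting had 0 in each direction, members lower in KO numbered 2 without scaling between arrays (Hist1h2bc and Hist2h3c2), 1 with normexp and 75th percentile scaling (Hist1h2bc) and 1 without a filter. Members higher in KO numbered 1 with normexp and quantile normalization (Hist1h1a) and 3 within slide 1 (Hist1h1a, Hist1h2bb and Hist1h3g). Leaving out 1 array at a time gave 0 to 4 higher and 0 to 1 lower, the 4 being Hist1h1a, Hist1h2bb, Hist1h3f and Hist1h3g without WT replicate 3. The median difference over the members ranged from 0.05 to 0.28 in those fits, H1 from 0.06 to 0.48, H2A from 0.09 to 0.41, H2B from -0.13 to 0.04, H3 from 0.05 to 0.24 and H4 from 0.04 to 0.27. Within slide 2 the H1 median was -0.15. With quantile normalization the medians of H1, H2A, H2B, H3 and H4 were 0.28, 0.15, -0.06, 0.13 and 0.13. With normexp and quantile normalization they were 0.27, 0.14, -0.03, 0.11 and 0.11. The H2A median in the main setting was 0.23. The difference of Hist1h2ah was 0.22 in the main setting, and 0.09 and 0.12 with these normalizations. Without scaling the median over the members was 0.00 and that over all probes -0.15. Over all probes, the 9 adjusted calls became 5 without scaling, 14 with normexp and 75th percentile scaling, 3 with all 6 arrays required above background, 4 without a filter, 4 with 1 probe per gene name and 0 within slide 1, and 0 to 5 with 1 array left out. The 3176 probes at an unadjusted p under 0.05 became 5132 without scaling, 1607 within slide 1 and 1869 to 4233 with 1 array left out. With replicate number as a block, 0 probes passed the adjusted threshold and the median over the members stayed 0.14; same-numbered arrays deviated together with correlations of -0.018, 0.143 and 0.084, so the numbers were not taken as a pairing. The scaling over probes well above background on all 6 arrays was chosen after seeing the data. Of 513 values for the 27 named probes, 498 moved by less than the probe's own SD within a genotype. Among the 513, 20 turned sign, with no call among those tested. That SD had a median of 0.26 over the measured members, so a difference near their median of 0.14 can vanish or reverse within it. Of the 6 medians over all members or a histone type, 0 kept their sign in every alternative, and of 13 companion and marker lists 5 did. The causes of these shifts were not tested.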
